A study of Mus musculus with 4 samples.

Results

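Chemokines are small secreted proteins that draw cells along a gradient, and their receptors are G protein-coupled receptors that couple to inhibitory G proteins. In a germinal center, where activated B cells mutate and select their antibody genes, Cxcl12 made by stromal cells holds Cxcr4-bearing B cells in the dark zone, and Cxcl13 draws Cxcr5-bearing cells to the follicle and the light zone. H3K27me3, trimethylation of histone H3 at lysine 27, is laid down by Polycomb repressive complex 2 over genes that a cell type keeps silent, and Kdm6b (JMJD3) is an enzyme that removes it. The genes described here are the chemokines and chemokine receptors, taken as the mouse protein-coding genes whose symbols begin with Ccl, Cxcl, Ccr, Cxcr, Xcr, Xcl, Ackr or Cx3c. This gave 63 genes, of which 62 had a chromosome position and were measured, 38 ligands and 24 receptors among 21779 protein-coding genes. The remaining gene, Ccl21c, had no usable chromosome position and was not analysed here.

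The assay was CUT&Tag, in which a transposase tethered to an antibody on H3K27me3 cuts nearby DNA and adds sequencing adapters. The cells were germinal center B cells sorted from the spleens of C57BL/6 mice, 2 with a B cell knockout of Kdm6b (KO) and 2 wild type (WT). All 4 mice had received sheep red blood cells by intraperitoneal injection, a second injection on day 5, and were analysed on day 12. The series title calls the cells pre-plasma germinal center B cells. The Cre driver, the deleted part of Kdm6b, the sort markers and the age of the mice are not stated in the labels used here, and H3K27me3 peaks do not show whether Kdm6b was deleted, so the genotypes rest on the labels.

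Each library came as a list of peaks, and the measure used throughout was the covered share, the percentage of the bases of a gene body or window that lay in peaks. A gene body runs from one end of the gene to the other. A 5′ end window runs from 2 kb before to 2 kb after the start of the gene, and could be placed for the 48 members with a known strand, 20 receptors and 28 ligands. For the other 14, among them Ccr7, Ccr10 and Cxcr5, the gene body and the windows at both gene ends were used. A gene body or window was called marked where at least 25% of it was covered. Values are given for replicate 1 and then replicate 2 of each genotype, and the replicate numbers only name the mice. The peaks covered 143.9 Mb and 235.8 Mb in the KO libraries against 212.6 Mb and 101.4 Mb in the WT libraries. The covered length averaged 189.9 ± 65.0 Mb in KO against 157.0 ± 78.6 Mb in WT (SD, n = 2 each), and an exact two-sided permutation test gave p = 0.667, the smallest p that 2 against 2 allows being 0.333. KO replicate 2 and WT replicate 1 were thus the broad libraries and KO replicate 1 and WT replicate 2 the narrow ones, a split that crosses genotype and that shows in most genes below. Read depth was unknown, and the number of mice limits the precision.

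Lists of cell type markers were read to check the labelled cell type. At either gene end, 0 of 6 germinal center B cell markers (among them Bcl6, Fas and S1pr2) were marked in any library. Of 6 general B cell markers, 1 and 3 were marked in KO against 0 and 0 in WT, and those marked were Ms4a1, Cd79a and Cd79b. Of 6 T cell markers, 5 and 6 were marked in KO against 6 and 6 in WT, with Cd4 and Gata3 covered to at least 99.6% at one end in every library. Of 5 myeloid markers, 4 and 4 were marked in KO against 4 and 3 in WT. Of 4 markers of stroma and endothelium, 2 were marked in every library. Erythroid markers were marked for 2 and 3 of 3 in KO against 3 and 1 in WT. The NK cell list did not follow the T cell and myeloid lists, as 1 of its 3 genes, Eomes, was marked in every library. Ncr1 and Klrb1c had no coverage in any library, so a lack of peaks was not particular to genes of B cells. Plasma cell genes were divided, since Prdm1 and Sdc1 were marked in every library, whereas Xbp1 and Irf4 were marked only in KO replicate 2.

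4 promoters show the range of the family. They combine few or many CG dinucleotides, the sequence that Polycomb targets are known to be rich in, with high or little coverage. Each is the 250 bases before the gene's start, as RefSeq gives it for GRCm38.p6 (mm10), written 5′ to 3′ on the gene's strand with every CG in capitals. Cxcr4 lies on the minus strand at chr1:128592300-128592549, Ccr6 on the plus strand at chr17:8235793-8236042, Cxcl12 on the plus strand at chr6:117168285-117168534 and Cxcl13 on the plus strand at chr5:95956689-95956938.
Cxcr4: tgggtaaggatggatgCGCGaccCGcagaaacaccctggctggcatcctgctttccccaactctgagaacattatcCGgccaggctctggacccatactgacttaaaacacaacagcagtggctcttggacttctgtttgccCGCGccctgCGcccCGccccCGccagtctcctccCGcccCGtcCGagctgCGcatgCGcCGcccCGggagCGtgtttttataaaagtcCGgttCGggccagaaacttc
Ccr6: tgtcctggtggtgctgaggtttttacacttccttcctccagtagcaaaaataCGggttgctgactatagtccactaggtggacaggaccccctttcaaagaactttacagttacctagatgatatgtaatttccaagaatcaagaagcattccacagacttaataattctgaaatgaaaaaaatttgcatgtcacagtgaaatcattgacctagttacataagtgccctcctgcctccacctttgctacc
Cxcl12: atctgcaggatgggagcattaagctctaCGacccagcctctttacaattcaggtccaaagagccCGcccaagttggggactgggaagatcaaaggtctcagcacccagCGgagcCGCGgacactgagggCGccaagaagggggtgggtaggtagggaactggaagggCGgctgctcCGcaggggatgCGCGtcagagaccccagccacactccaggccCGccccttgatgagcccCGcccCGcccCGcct
Cxcl13: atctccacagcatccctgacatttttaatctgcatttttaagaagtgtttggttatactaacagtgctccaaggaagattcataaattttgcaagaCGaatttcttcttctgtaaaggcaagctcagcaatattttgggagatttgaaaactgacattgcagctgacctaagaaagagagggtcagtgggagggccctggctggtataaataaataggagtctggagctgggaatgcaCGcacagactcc
These hold 19 CG in Cxcr4, 1 in Ccr6, 14 in Cxcl12 and 2 in Cxcl13. The 5′ end windows of Ccr6 and Cxcl12 were covered to 76.6% or more in every library, that of Cxcl13 was free of peaks in every library, and that of Cxcr4 held a peak in KO replicate 2 alone.

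A larger share of the family's gene bodies was marked than of protein-coding gene bodies in general, in each of the 4 libraries. Gene bodies were marked for 25 and 30 of 62 members in KO and for 32 and 18 in WT. Over all genes, 17.7% and 25.9% were marked in KO against 23.3% and 13.4% in WT. Median covered shares of the gene body were 1.28% and 23.8% in KO against 25.2% and 0.71% in WT over the members, while over all genes they were 0% and 1.18% in KO against 0.0023% and 0% in WT. Gene length, on which the share of a body filled by a peak depends, was not matched, and its part in the excess was not tested. The excess was smaller at the gene start, where all windows have the same length. The 5′ end window was marked for 18 and 28 of 48 members in KO against 25 and 13 in WT, and for 29.5% and 41.9% of all genes in KO against 36.9% and 22.9% in WT. Receptors and ligands were marked about equally often, with 9 and 11 of 24 receptor bodies in KO against 12 and 6 in WT, and 16 and 19 of 38 ligand bodies in KO against 20 and 12 in WT.

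The members fell into a marked set, an unmarked set and a set that changed with the library. The gene body was marked in all 4 libraries for 17 of the 62, against 12.4% of all genes, and had no covered base in any library for 19 of the 62, against 36.6% of all genes. At the 5′ end, 12 of 48 members were marked in all 4 libraries, against 20.8% of all genes, and 16 were without coverage in all 4, against 41.2%. The members and their 2 kb flanks summed to 797760 bases, with bases shared by neighbours such as Ccl3 and Ccl4 counted for each gene. Of these, 92058 lay in peaks of all 4 libraries and 489479 in peaks of none. A further 37670 bases lay in peaks of the broad libraries alone, KO replicate 2 and WT replicate 1. Bases in peaks of both KO libraries and neither WT library numbered 13946, and bases in peaks of both WT libraries and neither KO library 3050. Bases were not counted in this way over all genes, so whether this excess is particular to the members was not tested. Gene bodies over all 21779 genes leaned the same way. For 1696 of them each KO library had more coverage than each WT library, and for 379 the reverse held. Peaks of the 3 longer lists were dropped, those with the lowest highest signal first, until all lists covered as much as WT replicate 2. At this equal covered length, 20 and 20 members had marked bodies in KO against 17 and 18 in WT. For all genes the shares were then 13.8% and 14.1% in KO against 14.1% and 13.4% in WT.

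Among the receptors that guide B cells, Ccr10, Ccr7 and Ccr6 were marked in all 4 libraries, with Ccr10 and Ccr7 covered to at least 87.8%. Cxcr4 and Cxcr5 had peaks in KO replicate 2 alone, and Cxcr3 had none. Ccr10, which plasma cells use to reach mucosal sites making Ccl28, was covered to 100% of its body in all 4 libraries (chr11:101172998-101175443). The peak on Ccr10 was 17544 bp and 21585 bp long in KO against 20488 bp and 2548 bp long in WT, and by total signal it ranked within the top 0.12% and 0.16% of peaks in KO and the top 0.11% and 5.07% in WT. It reached over neighbouring genes in the KO libraries and in WT replicate 1, so the coverage is of a domain and not of Ccr10 alone.

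Ccr7, the receptor for Ccl19 and Ccl21 that leads B cells to the border of the T cell zone, was covered to 100% and 100% in KO against 100% and 87.8% in WT (chr11:99144199-99155077). Its longest peak was 16939 bp and 32863 bp in KO against 27060 bp and 5909 bp in WT, so the gene body stayed covered in the narrow WT library while the domain around it was broken up. Ccr6, the receptor for Ccl20, found on naive and memory B cells, was covered to 79.8% and 97.1% in KO against 94.2% and 54.9% in WT (chr17:8236041-8258519). Its 5′ end window was covered to 100% and 100% in KO against 100% and 76.6% in WT, and its CG-poor promoter is the second of those printed above. The KO and WT values of Ccr6 and Ccr7 overlapped or touched, and the lowest was that of WT replicate 2 for each.

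Cxcr4 (chr1:128588199-128592299) was covered to 0% and 22.8% in KO against 0% and 0% in WT, and its 5′ end window to 0% and 47.7% in KO against 0% and 0% in WT, so that the 5′ end counted as marked in KO replicate 2. The single peak over it, in KO replicate 2, was 933 bp long and lay 605 to 1538 bp inside the gene from its start, and 87.3% of that library's peaks had at least its total signal. In the other libraries the nearest peak was 25951 bp away in KO replicate 1, and 21871 bp and 8689 bp away in WT. Cxcr5 (chr9:44511787-44526444) was covered to 0% and 3.42% in KO against 0% and 0% in WT, by a 502 bp peak with at least 93.3% of that library's peaks as strong or stronger. Both genes thus had no covered base in 3 of 4 libraries and a weak peak in the broadest one. Cxcr3, the receptor for Cxcl9 and Cxcl10 and a marker of effector and some memory B cells, had no peak within 46333 bp in KO or 25908 bp in WT.

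Set against the other 22 receptors, Cxcr4 and Cxcr5 differed by -27.4 percentage points in mean body coverage over the libraries. The means of the other 22 were 28.6% and 39.6% in KO against 35.4% and 19.0% in WT. The pair was chosen for its role in the germinal center and not at random, so the difference is given as a description without a test. Low coverage was not particular to the pair, since the gene bodies of Cxcr3, Cxcr6 and Ccr2 also had no covered base in any library. Ccr9, which brings cells to the gut along Ccl25, lay between the extremes, with 6.03% and 26.1% of its body covered in KO against 21.8% and 0% in WT. At its 5′ end the coverage was 0% and 53.5% in KO against 52.9% and 0% in WT, the pattern of the broad libraries and not of a genotype.

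**Figure D1:**
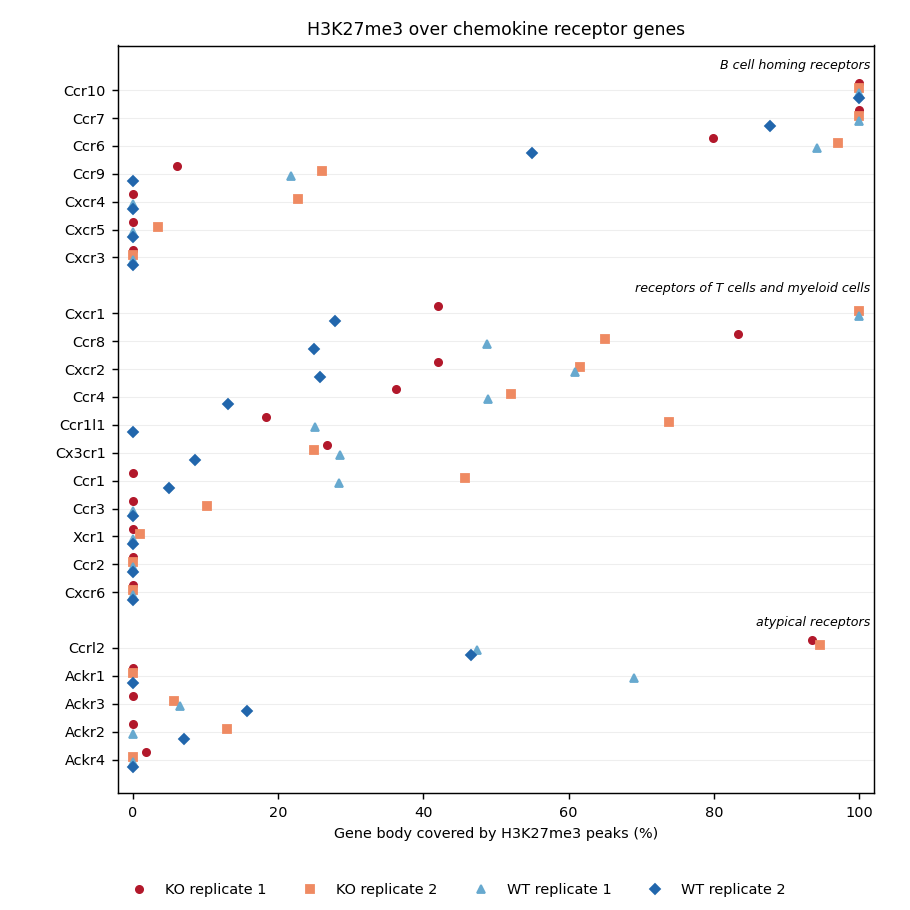
Share of receptor gene bodies covered by H3K27me3 peaks (x axis, %), with one row per gene and one symbol per library, and genes grouped by role. Ccr10, Ccr7 and Ccr6 sit at 54.9% or above in all 4 libraries, and Cxcr4, Cxcr5 and Cxcr3 sit at 0% in all libraries except KO replicate 2, where Cxcr4 reaches 22.8%.

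**Figure D2:**
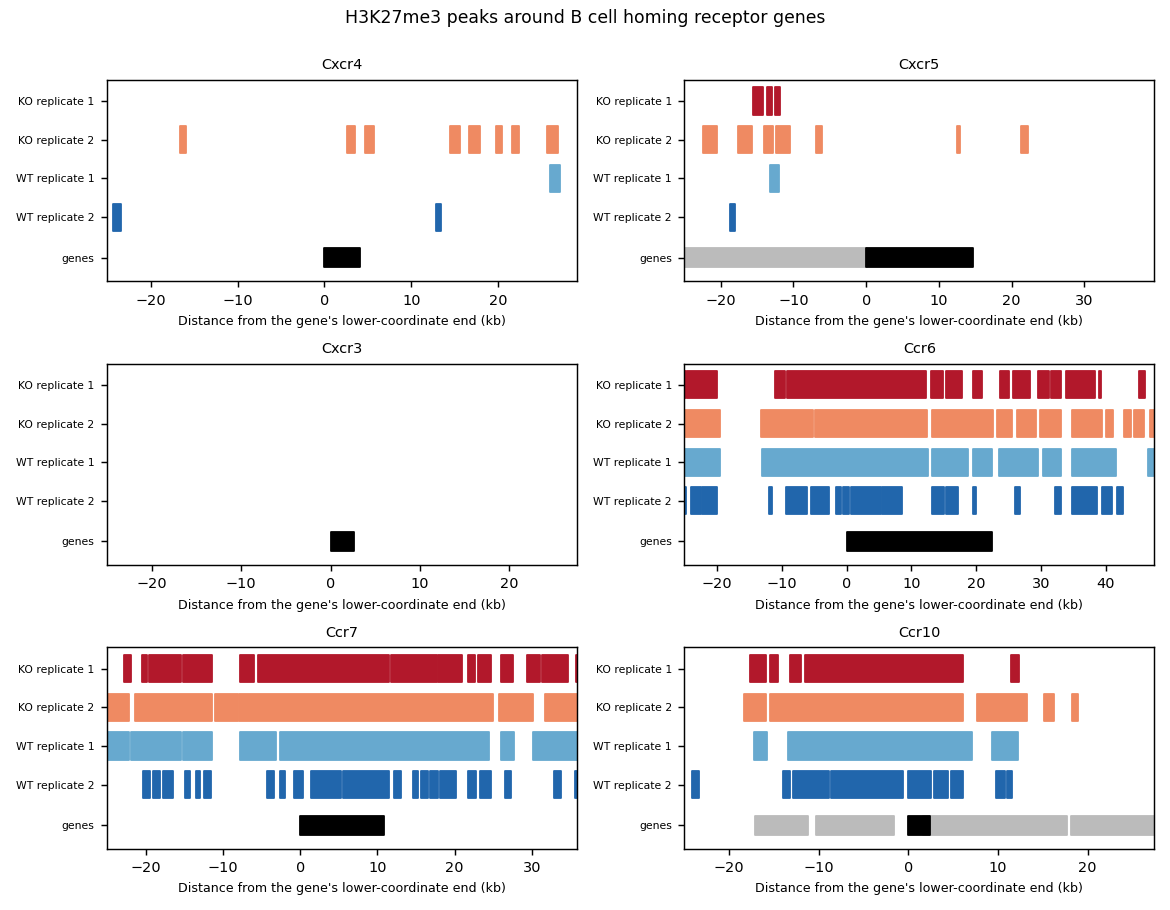
Peaks of each library (coloured blocks, one row per library) around 6 receptor genes, against distance in kb from the lower-coordinate end of the gene, with the named gene in black and other protein-coding genes in grey. Blocks lie over Ccr6, Ccr7 and Ccr10 in every library, broken into shorter ones in WT replicate 2, short scattered blocks lie near Cxcr4 and Cxcr5, and no block lies in the span drawn for Cxcr3.

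Of the receptors of T cells and myeloid cells, 5 and 6 of 12 bodies were marked in KO against 7 and 2 in WT, or 41.7% and 50% in KO against 58.3% and 16.7% in WT. The shares over all genes given above were 17.7% and 25.9% in KO against 23.3% and 13.4% in WT. Cxcr1 and Cxcr2, the neutrophil receptors for CXC chemokines, were marked in every library. Cxcr1 was covered to 42.0% and 100% in KO against 100% and 27.9% in WT, and Cxcr2 to 42.0% and 61.5% in KO against 60.9% and 25.8% in WT. For both, the broad libraries were high and the narrow ones low. Ccr4, found on type 2 helper and skin-homing T cells, was covered over its 5′ end window to 94.2% and 83.4% in KO against 85.9% and 25.6% in WT, and over its body to 36.3% and 52.1% in KO against 48.9% and 13.1% in WT. This window sits at the outer end of the annotated gene, and the RefSeq promoter entry for Ccr4 lies 8932 bp inside that end. Cx3cr1, the fractalkine receptor of monocytes, was likewise covered more at its 5′ end, to 65.2% and 56.2% in KO against 69.4% and 26.5% in WT, than over its body, to 26.7% and 24.9% in KO against 28.5% and 8.53% in WT.

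Neighbouring receptors on chromosome 9 differed from each other. Ccr1, a receptor of monocytes, was covered to 0% and 45.7% in KO against 28.4% and 4.98% in WT, and its close relative Ccr1l1 to 18.4% and 73.8% in KO against 25.1% and 0% in WT. Ccr3, the eotaxin receptor of eosinophils, was covered in KO replicate 2 alone, to 10.3%. Xcr1, which marks cross-presenting dendritic cells, was covered to 0.97% in the same library and to 0% in the others. Ccr2, the monocyte receptor for Ccl2, and Cxcr6, a receptor of tissue-resident T cells, were at 0% in all 4.

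The atypical receptors bind chemokines without signalling through G proteins, and most scavenge them. Ackr3, which scavenges Cxcl12, was covered mainly around its start. Its 5′ end window was covered to 18.5% and 66.5% in KO against 69.0% and 51.8% in WT, and its body to 0% and 5.62% in KO against 6.46% and 15.7% in WT. The body of Ackr3 was thus the only one of 62 in which both WT libraries exceeded both KO libraries, while its 5′ end values overlapped between the genotypes. At equal covered length, reached by leaving out the weakest peaks of the longer lists, the 5′ end was covered to 0% and 0% in KO against 69.0% and 51.8% in WT, a difference of -60.4 percentage points against -17.9 with all peaks. Ackr4, which scavenges Ccl19, Ccl21 and Ccl25, had 1.83% covered in KO replicate 1 and 0% in KO replicate 2 and in both WT libraries. Ackr1, known from red blood cells and venules, was covered in WT replicate 1 alone, to 69.0%, and Ackr2, which scavenges inflammatory CC chemokines, to 0% and 12.9% in KO against 0% and 7.04% in WT.

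Of 11 homeostatic ligands, those made by stroma and epithelium without inflammation, 3 had marked bodies in all 4 libraries and 6 had no covered base in any. Cxcl12, the ligand of Cxcr4, was covered to 83.9% and 96.6% in KO against 92.2% and 74.0% in WT (chr6:117168535-117181368), and its 5′ end window to 100% in all 4 libraries. Cxcl13, the ligand of Cxcr5, had no covered base (chr5:95956939-95961068), and its nearest peak lay 74151 bp and 73696 bp away in KO against 74279 bp and 226154 bp away in WT. The ligand gene of the dark zone receptor was thus covered to 74.0% or more of its body in all 4 libraries. That of the light zone receptor was covered in none. Cxcr4 had no covered base in 3 of 4 libraries while its ligand gene was covered in all, and Cxcr5 and its ligand gene were both without a covered base in at least 3 of 4.

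Cxcl14, an epithelial chemokine, was covered to 47.7% and 76.8% in KO against 66.1% and 58.7% in WT, and Ccl27a, which draws T cells to the skin, to 34.0% and 81.7% in KO against 61.4% and 37.1% in WT. Ccl28, the mucosal ligand of Ccr10, was lower, with 7.54% and 13.3% covered in KO against 29.4% and 10.9% in WT. Ccl25, the gut and thymus ligand of Ccr9, had 0.72% and 7.47% covered in KO against 6.58% and 1.43% in WT, although its promoter held 45 CG, the most of any member. Ccl19, Ccl21a, Ccl21b, Ccl21d and Ccl27b, which lie among near-identical copies on chromosome 4, had no covered base, and no peak lay within 77059 bp of Ccl21a in any library. Reads from such copies may not map to one place, so the lack of peaks over these 5 genes is uncertain. Without them, Cxcl13 was the 1 homeostatic ligand with no covered base.

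Among the inflammatory CC ligands, 2 gene clusters on chromosome 11 were in opposite states. The 16 genes of the list had marked bodies for 6 and 8 in KO against 8 and 6 in WT, and 7 had no covered base in any library. The cluster from Ccl2 to Ccl1 (chr11:82035577-82179812, 6 members), which holds the monocyte attractants Ccl2, Ccl7, Ccl8 and Ccl12 and the eosinophil attractant Ccl11, was covered to 0% and 0% in KO against 0.39% and 0.26% in WT. Along the same chromosome, the cluster from Ccl5 to Ccl4 (chr11:83525778-83664683, 5 members) was covered to 53.5% and 75.3% in KO against 65.6% and 30.3% in WT. One cluster was thus nearly free of peaks and the other covered to 30.3% or more in all 4 libraries. The 100 kb on the higher-coordinate side of the covered cluster were covered to 60.9% and 78.3% in KO against 70.7% and 42.2% in WT. On the lower-coordinate side the coverage was 44.2% and 48.2% in KO against 46.1% and 33.7% in WT. The coverage was therefore of a wider region and not of the chemokine genes alone. Ccl5, the T cell chemokine RANTES at the edge of the covered cluster, was itself covered in KO replicate 2 alone, to 29.3%. Outside the clusters, Ccl24, an eosinophil attractant, was at an intermediate 17.5% and 33.5% in KO against 30.5% and 34.9% in WT, and Ccl26 had 0% and 18.0% in KO against 31.5% and 0% in WT. Ccl20, the ligand of Ccr6, had no covered base.

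Within the covered cluster, Ccl9, a myeloid attractant, was covered to 62.0% and 92.1% in KO against 82.7% and 33.4% in WT, and Ccl6 to 44.8% and 94.8% in KO against 72.7% and 34.6% in WT. Ccl3, a macrophage inflammatory protein that activated B cells can make, was covered to 93.2% and 87.0% in KO against 80.5% and 36.5% in WT. Ccl4, its close relative, overlaps Ccl3 in this annotation and so shares bases with it, and was covered to 75.9% and 83.2% in KO against 59.1% and 50.5% in WT. For Ccl3 and Ccl4 the KO values were both above the WT values, whereas for Ccl9 and Ccl6 the broad libraries were the high ones. At equal covered length the genotypes overlapped for both Ccl3 and Ccl4. Ccl3 was then covered to 93.2% and 79.6% in KO against 80.5% and 36.5% in WT, and Ccl4 to 72.9% and 41.5% in KO against 47.0% and 50.5% in WT.

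The cluster of Ccl22, Cx3cl1 and Ccl17 (chr8:94745684-94812038, 3 members) was the most covered of the ligand clusters, to 78.6% and 84.2% in KO against 82.7% and 53.8% in WT. Its flanks of 100 kb were covered less. The lower-coordinate flank was at 38.6% and 52.0% in KO against 46.5% and 30.7% in WT. The higher-coordinate flank was at 28.5% and 39.4% in KO against 37.3% and 21.7% in WT. Cx3cl1, the membrane-bound chemokine fractalkine, was covered to 100% and 100% in KO against 98.6% and 88.8% in WT, and its 5′ end window to 100% in all 4 libraries. Ccl22 and Ccl17, the ligands of Ccr4 by which B cells and dendritic cells attract helper T cells, were covered to different extents. Ccl22 was covered to 97.5% and 100% in KO against 89.7% and 54.0% in WT, and Ccl17 to 60.4% and 90.6% in KO against 87.1% and 16.8% in WT. Ccr4 and both of its ligands had marked bodies in both KO libraries and WT replicate 1, and of the 3 only Ccl22 was marked over its body in WT replicate 2.

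The cluster from Cxcl5 to Cxcl2 (chr5:90759298-90905938, 5 members), neutrophil attractants that bind Cxcr2, was covered to 3.81% and 6.35% in KO against 5.4% and 4.17% in WT, with no peak longer than 3000 bp. Peaks lay on 4 of the 5 genes in at least 1 library, and Cxcl15 had no covered base in any. Cxcl1 was covered to 26.5% and 38.9% in KO against 40.1% and 17.2% in WT. Cxcl2 was covered to 27.4% and 58.0% in KO against 57.6% and 69.7% in WT, and Cxcl3 to 30.1% and 0% in KO against 29.1% and 0% in WT. Pf4 and Ppbp, platelet chemokines that lie in this cluster under other symbols and are not counted as members, were covered in KO replicate 2 alone for Pf4, to 77.8%, and in no library for Ppbp. Cxcl9 and Cxcl10, the interferon-induced ligands of Cxcr3, differed from each other, Cxcl9 being covered to 84.8% and 87.9% in KO against 51.7% and 22.1% in WT, and Cxcl10 to 0% and 47.1% in KO against 0% and 0% in WT.

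**Figure D3:**
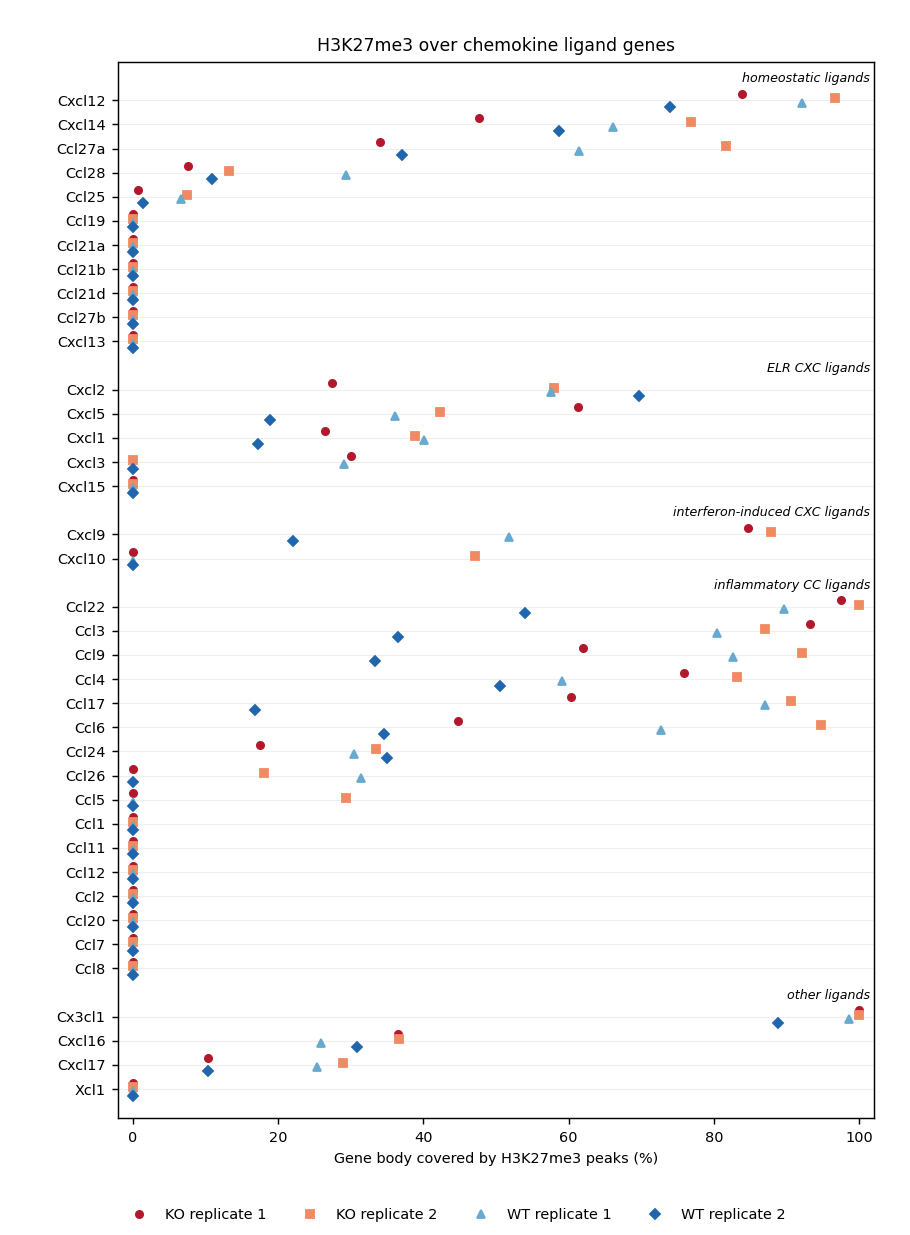
Share of each ligand gene body covered by H3K27me3 peaks (x axis, %), with one row per gene and one symbol per library, and genes grouped by role. Cxcl12 and Cx3cl1 sit at 74.0% or above in all 4 libraries, Cxcl13 and the members of the Ccl2 to Ccl1 cluster sit at 0%, and the 2 KO symbols for Cxcl9 lie to the right of the 2 WT symbols.

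**Figure D4:**
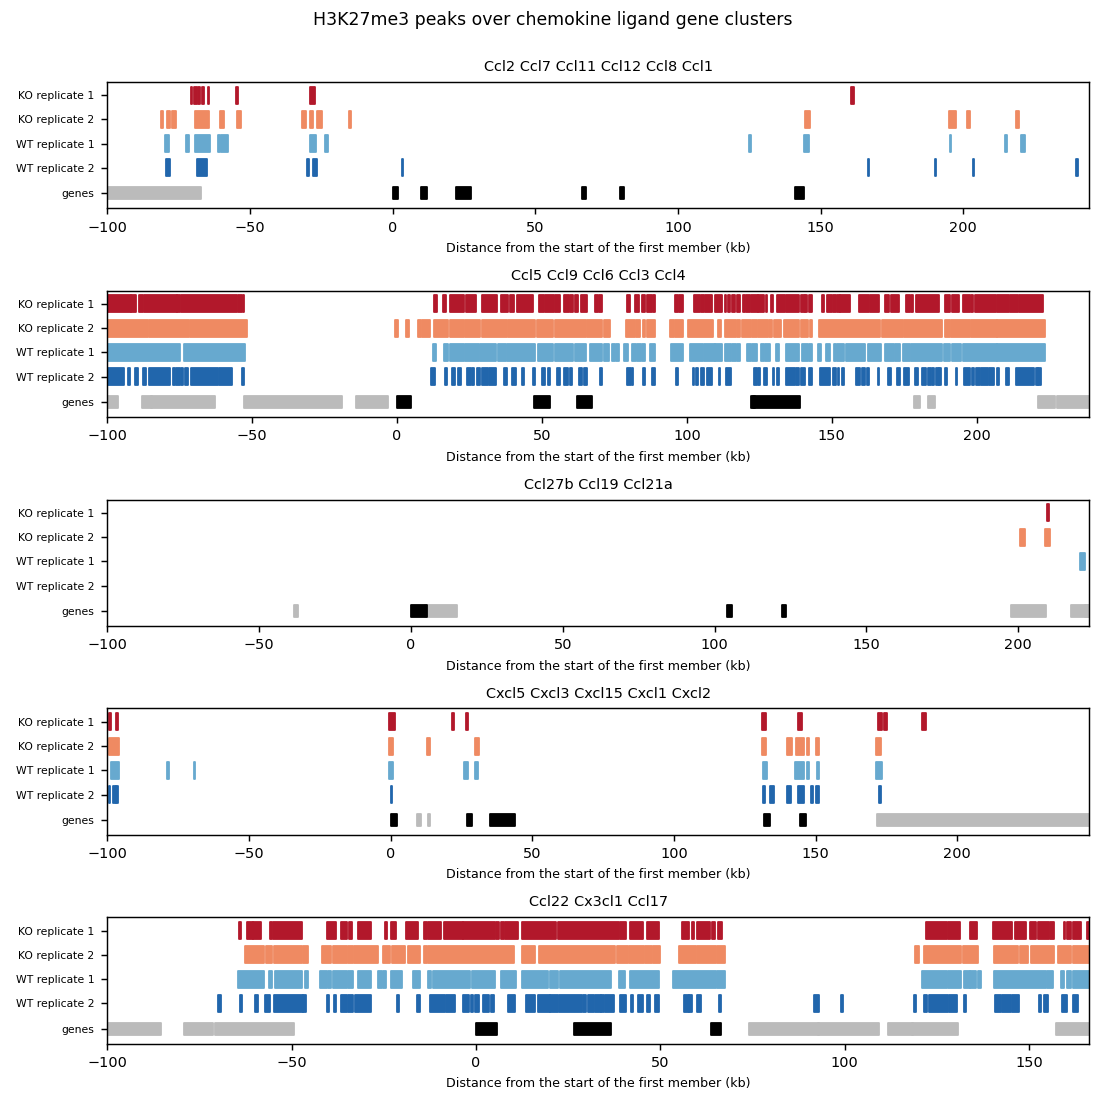
Peaks of each library (coloured blocks, one row per library) across the ligand gene clusters of at least 3 members, against distance in kb from the start of the first member, with members in black and other protein-coding genes in grey. The Ccl5 to Ccl4 and Ccl22 to Ccl17 clusters hold many peaks in all 4 libraries, with the shortest covered length in WT replicate 2 and little over Ccl5, and the span of the Ccl2 to Ccl1 cluster is almost empty in all 4.

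The promoters of the family were poor in CG. The motif CG reads the same on both strands, and it was counted in the 250 bases before each gene's start for 48 members and 17492 genes in all. The median count was 3 in members and 10 over all genes, and at least one CG was present in 97.9% of members and 92.6% of all genes. At least 10 CG were found in 7 members, or 14.6%, against 50.4% of all genes, and these were Ccl25, Ccl21b, Cxcr4, Cxcl14, Cxcl12, Cx3cl1 and Cxcl1. Among the 41 members with fewer than 10 CG, the 5′ end was marked for 14 and 23 in KO against 21 and 10 in WT, or 34.1% and 56.1% against 51.2% and 24.4%. Over all genes with fewer than 10 CG, it was marked for 23.2% and 33.1% in KO against 30.6% and 17.9% in WT. Among the 7 members with more CG, 4 and 5 were marked in KO against 4 and 3 in WT, or 57.1% and 71.4% against 57.1% and 42.9%. Of all genes with at least 10 CG, 35.8% and 50.6% were marked in KO against 43.0% and 27.7% in WT. Across genes, Spearman's rho between the CG count and the mean coverage of the 5′ end window was 0.14 over the 48 members and 0.28 over all 17492, as a description of genes that share the same libraries. The 7 members with more CG were thus marked more often than the other 41 in every library. Both groups still held marked and unmarked members. Ccr6, with 1 CG, was marked at the 5′ end in every library, whereas Ccl25, with 45 CG, was marked in none. Cxcr4, with 19 CG, was marked there in KO replicate 2 alone.

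The comparison of KO with WT asks where the mark differs without Kdm6b. No member passed the test in either direction. Of 13805 gene bodies covered in at least one library, limma at an adjusted p below 0.05 called 2 higher and 0 lower in KO, or 0.0145% and 0.0%, and neither was a member. Of 10279 covered 5′ end windows it called 0 higher and 0 lower, or 0.0% in each direction, and an unadjusted p below 0.05 was found for 366 windows higher in KO and 52 lower. The members tested numbered 43 for gene bodies and 32 for 5′ ends, of which 4 and 3 had an unadjusted p below 0.05, all higher in KO. Among all covered gene bodies, 216 higher and 47 lower in KO had such a p. Over the covered genes, the mean KO minus WT difference in body coverage was 9.56 percentage points for members and 4.32 for all genes, and at the 5′ end 13.4 for members and 7.32 for all genes. For all genes the body difference was 9.81 without KO replicate 1, -1.01 without KO replicate 2, 10.6 without WT replicate 1, -1.65 without WT replicate 2 and 0.92 at equal covered length. The 5′ end difference for all genes was 14.8, 0.30, 16.9, -1.56 and 3.16 in the same settings. Of the 13805 covered gene bodies in the genome, 9907 had a higher mean in KO against 3684 a lower one, and the mean covered length was likewise the greater in KO.

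The 2 genotypes were separated, both KO values above both WT values, for the bodies of 9 of 62 members, namely Ccrl2, Ccr8, Cxcl9, Ccl3, Ccl4, Ccl22, Cx3cl1, Cxcl5 and Cxcl16. Among all gene bodies this held for 7.79%, and for 1.74% with WT above KO, a pattern of 1 member. At the 5′ end, KO lay above WT for 6 of 48 members, Ccr8, Ccrl2, Ccl22, Ccl3, Cxcl9 and Cxcl1, and for 8.57% of all genes, and WT lay above KO for no member and 1.42% of all genes. The members' share was 12.5% at the 5′ end and 14.5% over the body. The 9 bodies are not independent, since Ccl3 and Ccl4 share bases and Ccl22 and Cx3cl1 lie in 1 cluster. The shares are therefore given as a description, and whether they exceed the background was not tested. With all lists brought to the same covered length, KO lay above WT for 7 bodies and WT above KO for 4, against 1204 and 991 of all genes, so that most of the excess of the KO direction over all genes was not seen at equal length.

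Ccrl2, an atypical receptor that binds chemerin and does not signal, had the most even separation. Its body was covered to 93.5% and 94.6% in KO against 47.4% and 46.6% in WT (chr9:111054834-111057518). The difference was 47.0 ± 1.06 percentage points (SE), with an unadjusted limma p of 7.1e-05 and an adjusted p of 0.196. In KO the peak ran from positions -245 and -938 bp, counted from the gene start, to 2510 and 2541 bp inside the gene. In WT it began 895 bp and 871 bp inside the gene and ended at 2169 bp and 2122 bp. At the 5′ end the coverage was 76.0% and 83.5% in KO against 41.1% and 37.7% in WT, but at the 3′ end the direction was opposite, with 45.6% and 67.6% in KO against 79.8% and 71.5% in WT. At equal covered length the body values were 93.5% and 94.6% in KO against 0% and 46.6% in WT.

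Ccr8, a receptor of skin T cells and regulatory T cells for Ccl1, had the largest 5′ end difference of any member. Its 5′ end window (gene at chr9:120092133-120094906) was covered to 52.0% and 71.0% in KO against 14.4% and 0% in WT, a difference of 54.3 ± 10.5 percentage points (SE) with a limma adjusted p of 0.884. It was the 1 member marked at the 5′ end in both KO libraries and neither WT library, a pattern of 1.09% of all genes, while the reverse pattern held for 0 members and 0.189% of all genes. Marked 5′ ends in KO replicate 2 and WT replicate 1 alone were found for 4 members and 5.4% of all genes. At equal covered length the peaks of the broad libraries on Ccr8 were gone, and its body coverage was 83.3% and 0% in KO against 0% and 25.0% in WT. Its ligand gene Ccl1 had a 5′ end coverage of 0% and 42.1% in KO against 42.9% and 0% in WT, the pattern of the broad libraries.

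Cxcl9 (chr5:92321331-92328079) was covered over its 5′ end to 57.3% and 71.9% in KO against 50.2% and 33.0% in WT. The body difference was 49.4 ± 13.0 percentage points (SE, adjusted p 1.0 by limma). At equal covered length the KO minus WT difference at its 5′ end was -13.0 percentage points, while the body values were 33.8% and 53.0% in KO against 21.4% and 22.1% in WT. Ccl22 had a 5′ end coverage of 100% and 100% in KO against 85.8% and 51.0% in WT, and Ccl3 of 88.0% and 84.8% in KO against 58.9% and 50.8% in WT, a difference of 31.6 ± 5.13 percentage points for Ccl3 (SE, limma adjusted p 0.884). Cxcl1 had 32.1% and 37.6% in KO against 31.1% and 21.4% in WT at the 5′ end, but the KO minus WT difference was -2.65 percentage points in a window of 5000 bp either side of the start and -14.9 at the 3′ end. The values of Ccl22 and Ccl3 in WT replicate 1 lay between those of KO and WT replicate 2. At equal covered length the 5′ end of Ccl3 was covered to 88.0% and 47.0% in KO against 47.3% and 50.8% in WT. The genotypes thus overlapped for Ccl3, while the 5′ end values of Ccl22 were unchanged.

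For the receptors the mean 5′ end difference between KO and WT was 12.3 percentage points, and it was 22.5 without KO replicate 1, 2.06 without KO replicate 2, 22.2 without WT replicate 1 and 2.31 without WT replicate 2. It was also 2.31 at equal covered length, 2.74 at the 3′ end and 6.59 in windows of 5000 bp either side. For the ligands it was 6.54, and 11.0 without KO replicate 1, 2.10 without KO replicate 2, 14.8 without WT replicate 1, -1.73 without WT replicate 2 and 4.25 in windows of 1000 bp either side. The size of both differences thus moved with single libraries and with the window, that of the receptors also with covered length, and the sign of that of the ligands changed without the library that had the least coverage.

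**Figure D5:**
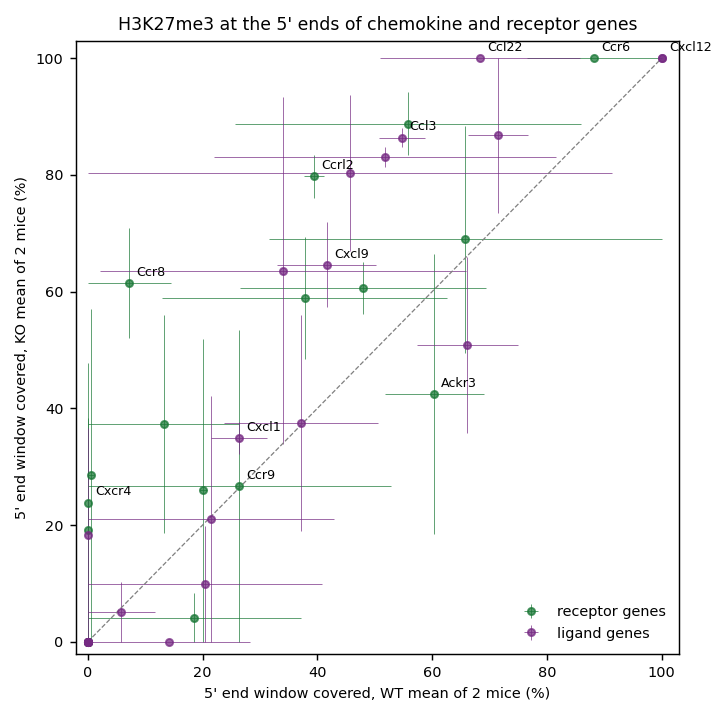
Mean covered share of the 5′ end window in KO (y axis, %) against WT (x axis, %) for each member with a known strand, receptors in green and ligands in purple, with lines from the lower to the higher of the 2 mice and a dashed line of equal values. Ccr8 and Ccrl2 lie farthest above the dashed line among members whose KO and WT ranges do not overlap, and the point labelled Cxcl12 is at 100% on both axes together with Cx3cl1.

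Downstream of the receptors, a list of 35 genes of chemokine receptor signalling (inhibitory G proteins, regulators of G protein signalling, arrestins, kinases, phosphoinositide 3-kinase subunits, exchange factors and small GTPases) was read in the same way. At either gene end, 12 and 21 were marked in KO against 14 and 8 in WT, and over all genes 34.1% and 47.0% were marked in KO against 41.3% and 27% in WT. None of the 27 tested gene bodies or 19 tested 5′ ends passed limma. The 8 genes marked in all 4 libraries, a state of 24.8% of all genes, were Rgs16, Arrb1, Pik3r5, Pik3r6, Plcb2, Rassf5, Tiam1 and Pxn. Rgs16, a brake on G protein signalling, was covered to 75.6% and 83.9% of its body in KO against 100% and 85.5% in WT. Rgs1 and Rgs13, brakes on Cxcr4 and Cxcr5 signalling that germinal center B cells express, had no covered base in their bodies, nor did Rgs18. Both regulatory subunits of phosphoinositide 3-kinase gamma were marked at a gene end in every library. The body of Pik3r5 was covered to 62.5% and 81.9% in KO against 82.6% and 38.4% in WT. That of Pik3r6 was covered to 46.4% and 68.1% in KO against 64.6% and 16.6% in WT. The body of the catalytic subunit Pik3cg was covered to 2.82% and 12.4% in KO against 6.28% and 3.13% in WT. Its 5′ end was covered to 14.6% and 61.5% in KO against 0% and 0% in WT.

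Of 8 other G protein-coupled receptors that position germinal center B cells, 2 and 3 were marked at either end in KO against 3 and 1 in WT. S1pr2, which confines B cells to the germinal center, and the lysophospholipid receptors P2ry10 and Gpr174 had no covered base in their bodies in any library, and Gpr183, the oxysterol receptor, only in WT replicate 2, to 4.13%. S1pr1, the receptor for exit to the blood, was covered to 32.8% and 55.7% of its body in KO against 10.8% and 7.70% in WT. Its gene ends were covered to 88.0% and 68.5% in KO against 62.5% and 58.9% in WT at whichever end had more coverage in that library. S1pr1 was thus marked at a gene end in every library, with both KO values above both WT values over the body and at the better covered end. Among all genes this order held for 7.79% of bodies and for 9.14% at the better covered end. The gene was singled out after its values were seen. Its body did not pass limma, and the better covered end was not tested as such.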

How the data were processed

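The authors deposited 1 peak list per library, called on each library separately, with the total and the highest signal (coverage) of each peak and no header. Per the submitters' processing notes the mm10 build was used with Bowtie2 2.4.2, SAMtools 1.11, Trim Galore 0.6.6, deepTools and SEACR. Neither their settings nor the peak caller's control or signal scale is stated there, so the deposited signal was used only to rank peaks within a list.

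Within a library, peaks on the autosomes, X and Y were kept as deposited, and none overlapped. The covered share of each gene body and of a window 2000 bp either side of each gene end was computed with Python 3.11.15, numpy 2.4.6 and pandas 2.3.3. Gene positions were those of RefSeq on GRCm38.p6 and strand came from RefSeq promoter entries, which held 17492 of 21779 genes. The 5′ end is the outer end of the annotated gene, and the promoter entry lay 8932 bp inside it for Ccr4, 4146 bp for Ccr3 and 1073 bp for Ccl17. Positions of exons, introns and UTRs were not used here. Genes covered in at least 1 library were tested in R 4.3.3 with limma 3.58.1 (linear fit and eBayes, no trend), with Benjamini-Hochberg adjustment over all genes tested. The code was tested on simulated data.

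Members, role lists and markers were chosen with earlier results of these data known. Named genes were a fixed set of B cell homing receptors, their ligands and atypical receptors, plus up to 6 members per direction with the largest 5′ end difference among those whose genotypes did not overlap. Others were named by role after their values were seen. Clusters were runs of at least 3 members with gaps under 200 kb. Alternatives covered window width, marking threshold, peak strength, equal covered length, filtering, fit options and leaving out each library. For equal covered length, peaks were ranked by their highest signal. The ranks given for single peaks and the setting without the weakest 25% of peaks used total signal. Windows at the lower and higher coordinate of all genes were added after the data were seen. p-values measure the spread between 2 mice per genotype, drawn by eBayes towards a value shared by all genes. Results for some genes are not reported here.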

Additional observations from a re-analysis of the deposited data

How the results depend on the processing

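The 2 gene bodies called over all genes became 0 without each library in turn, 0 with covered length as a covariate, 0 with trend and robust options, 1 at equal covered length, where the called gene was lower in KO and not higher as the 2 were, and 8 with uncovered genes kept. With uncovered genes kept, 5′ ends called numbered 20, of which 17 were higher and 3 lower in KO, and 3′ ends 8, against 0 and 0. No member was among the calls in any of these settings. At equal covered length, members marked at the 5′ end numbered 15 in KO replicate 2 (28 as reported) and 16 in WT replicate 1 (25), and at a threshold of 50% they numbered 8 in WT replicate 2 (13). The ligands' mean 5′ end difference, 6.54 percentage points, ranged from -1.73, without WT replicate 2, to 14.8 with 1 library left out. Single differences at the 5′ end changed sign as follows, in percentage points of KO minus WT. Ccr9 ranged from -26.4, without KO replicate 2, to 27.1, without KO replicate 1, with -26.1 without WT replicate 2, and had -0.46 with the weakest 25% of peaks left out. Ccl25 had -6.64 when WT replicate 2 was left out, 5.09 without WT replicate 1 and 4.31 without KO replicate 2, and had 5.09 at equal covered length and 0.092 over the gene body. With 1 library left out, Ackr3 ranged from -41.9, without KO replicate 2, to 6.14, without KO replicate 1, and it had -60.4 at equal covered length. Ccrl2 had -19.0 at the 3′ end, Cxcl9 -13.0 at equal covered length, and Cxcl1 -2.65 at 5000 bp and -14.9 at the 3′ end. The cause of these changes was not tested. For named genes, 19 further values fell to 0, among them Cxcr4 without KO replicate 2 and at equal covered length, and the other 133 did not change sign. The other 80 values over lists and all genes kept their direction or, for counts, stayed within 1.5 times. The contrast of Cxcr4 and Cxcr5 with the other receptors stayed between -31.2 and -22.7. No paired analysis was possible because the labels give no replicate numbers that link a KO mouse with a WT mouse. Unknown read depth and 2 mice per genotype limit what could be called.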

Other observations

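Chemokine pseudogenes next to the members, which are not protein-coding and so were not counted, were read in the same way. Cxcl11, listed as a transcribed pseudogene in this assembly and lying beside Cxcl9 and Cxcl10, was covered to 65.1% and 7.30% in KO against 0% and 7.78% in WT. Unlike Cxcl9, its KO and WT values overlapped. Ccl16-ps, inside the covered Ccl5 to Ccl4 cluster, was covered to 68.7% and 100% in KO against 100% and 44.5% in WT. Ccl19-ps1 and Ccl19-ps2, in the region of near-identical copies on chromosome 4, had no covered base in any library.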
